A study of Mus musculus with 5 samples.

Results

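Folate and one-carbon metabolism genes were examined in the neural tubes of mouse embryos lacking the erythropoietin receptor EpoR. The 8 members were chosen by name: the folate carriers Folr1 and Slc19a1, the folate interconversion enzymes Mthfd1, Mthfd1l and Mthfd2, the serine hydroxymethyltransferases Shmt1 and Shmt2, and the glycine decarboxylase Gldc. They are 8 of the 23284 genes with counts, and all 8 were among the 12703 genes tested. PolyA RNA was sequenced from 5 neural tube samples labelled E8.5, although the paper puts them slightly later. Each sample is taken here as 1 embryo. The 2 EpoR-null embryos (EpoR -/-) were compared with 3 littermate controls, 2 wild type (EpoR +/+) and 1 heterozygote (EpoR +/-). No further allele or agent is named in the labels, and the strain and the deleted part of EpoR are not given in the sources used here.

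Folate carries single carbon units that cells use to build purines and thymidylate and to remake methionine. Serine donates most of these units: SHMT enzymes release them, mitochondrial enzymes turn them into formate, and the cytosol uses the formate for synthesis. Neural tube closure is sensitive to this pathway, and mouse embryos without Folr1, Mthfd1l or Gldc activity can fail to close the tube.

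Reads counted on genes numbered 19316126 to 41169218 per sample, so that 3 reads corresponded to 0.0714 to 0.151 CPM, the read count scaled to library size. CPM values were adjusted with TMM factors of 0.9357 to 1.026, and SD is the standard deviation between embryos. Epor itself was at 2.35, 1.62 and 0.475 CPM in wild type 1, wild type 2 and the heterozygote, and at 0.353 and 0.668 CPM in EpoR-null 1 and 2. The heterozygote was below EpoR-null 2, and the difference did not pass the test (log2 fold change -1.51, FDR = 0.28 by edgeR's exact test). Summed neural progenitor markers (8 genes) were high in every sample, at 1943 to 2184 CPM in controls and 1946 and 1601 CPM in the EpoR-null samples. Singly, 6 of these 8 had log2 fold changes below 0 and 2 above, from -0.51 for Msi1 to 0.87 for Fabp7. One of the 8 passed the thresholds of the study as lower in EpoR-null, as did 3.84% of all tested genes. Other cell types varied more: summed primitive erythroid markers (9 genes, Hba-a1 at 0 in all samples) were 45.3 CPM in the heterozygote, 1121 and 620.0 CPM in the wild types, and 1718 and 977.8 CPM in the EpoR-null samples. Endothelial markers (7 genes) were at 12.4 to 296.5 CPM in controls and 254.5 and 142.5 CPM in the EpoR-null samples, and paraxial mesoderm markers (8 genes) at 17.5 to 82.4 CPM against 144.5 and 49.96 CPM. Surface ectoderm markers (6 genes) summed to at most 29.8 CPM and visceral endoderm markers (8 genes) to at most 1.62 CPM in any sample.

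No member was differentially expressed between EpoR-null and control neural tubes. At the thresholds of the study (p < 0.001 and FDR < 0.05, exact test of edgeR over all tested genes), 0 of 8 members passed, while 606 of 12703 genes (4.77%) did, 3.84% lower and 0.929% higher in EpoR-null. Taking FDR < 0.05 alone also gave 0 members, against 7.31% of all tested genes (5.49% lower, 1.81% higher). The log2 fold change was below 0 for 4 members and above 0 for 4, with a median of -0.01 against 0.06 over all tested genes. At an unadjusted p under 0.05 the exact test gave 1 member, Folr1, and 19.8% of all tested genes, and the quasi-likelihood F-test of edgeR 1 member, Gldc, and 24% of all tested genes. DESeq2 gave 0 members at FDR < 0.05, against 13.7% of all tested genes. Both EpoR-null samples lay outside the controls for 3 members (2 below, 1 above), a share of 37.5% that compares with 43.3% of all tested genes (22.1% below, 21.2% above).

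**Figure D1:**
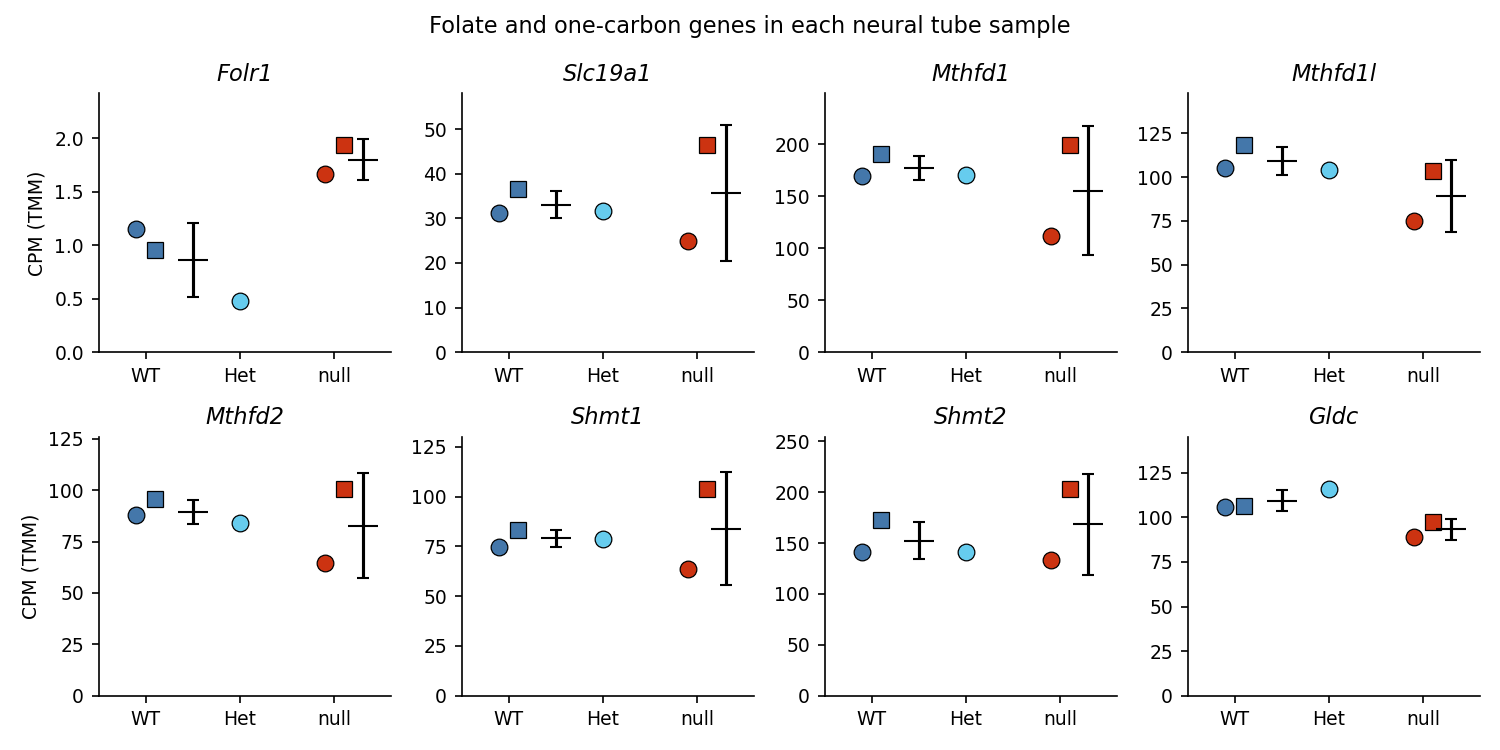
TMM-scaled CPM (vertical axis, linear from 0) of the 8 members in each of the 5 samples, with wild type (WT), heterozygote (Het) and EpoR-null (null) on the horizontal axis; circles are replicate 1, squares replicate 2, and black bars the mean and SD of the 3 controls and of the 2 EpoR-null samples. EpoR-null 1 is the lowest sample for 7 members and EpoR-null 2 the highest for 6, and the groups are separate for Folr1, Mthfd1l and Gldc.

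Folr1 encodes folate receptor alpha, which binds folate at the cell surface and takes it in by endocytosis. It lies on chromosome 7 (GRCm38, chr7:101858331-101870788, minus strand). Its expression was 1.16 and 0.952 CPM in wild type 1 and 2, 0.475 CPM in the heterozygote, and 1.66 and 1.93 CPM in EpoR-null 1 and 2. Both EpoR-null samples were above all controls. These values rest on 28, 40, 11, 33 and 55 reads in the same order. Controls averaged 0.861 ± 0.349 CPM (SD, n = 3) and EpoR-null samples 1.80 ± 0.191 CPM (SD, n = 2). The log2 fold change was 1.05 (SE 0.50, 95% interval 0.08 to 2.03), and it did not pass after adjustment (exact test, p = 0.0352, FDR = 0.205). Folr1 exceeded 1 CPM in only 1 control, so it needed an EpoR-null sample to enter the test. It is the weakest and shortest member, and the controls themselves spanned 2.43-fold.

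Slc19a1 encodes the reduced folate carrier, a membrane transporter of folate (chr10:77032241-77061002, plus strand). Its expression was 31.1 and 36.6 CPM in wild type 1 and 2, 31.5 CPM in the heterozygote, and 24.9 and 46.4 CPM in EpoR-null 1 and 2. EpoR-null 1 was the lowest and EpoR-null 2 the highest of the 5 samples. The means were 33.1 ± 3.05 and 35.6 ± 15.2 CPM (SD, n = 3 and 2), with a log2 fold change of 0.11 (SE 0.31, FDR = 0.889, exact test).

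Mthfd1 encodes the trifunctional cytosolic enzyme that charges formate onto folate and supplies purine and thymidylate synthesis (chr12:76255298-76319803, plus strand). Its expression was 170.0 and 190.5 CPM in wild type 1 and 2, 170.7 CPM in the heterozygote, and 112.0 and 199.2 CPM in EpoR-null 1 and 2. The EpoR-null samples again enclosed the controls, as lowest and highest. The means were 177 ± 11.7 and 156 ± 61.6 CPM, and the log2 fold change was -0.19 (SE 0.27, FDR = 0.758, exact test). The SD between the EpoR-null embryos exceeded the difference between the means.

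Mthfd1l encodes the mitochondrial enzyme that releases formate (chr10:3973118-4167081, plus strand). Its expression was 105.2 and 118.3 CPM in wild type 1 and 2, 104.1 CPM in the heterozygote, and 74.7 and 103.6 CPM in EpoR-null 1 and 2. Both EpoR-null samples were below the controls, EpoR-null 2 by under 1 CPM. The means were 109 ± 7.89 and 89.2 ± 20.4 CPM, with a log2 fold change of -0.29 (SE 0.19, FDR = 0.414, exact test).

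Mthfd2 encodes the mitochondrial dehydrogenase and cyclohydrolase that acts just before Mthfd1l and is abundant in embryonic and proliferating cells (chr6:83305691-83325908, minus strand). Its expression was 88.0 and 95.9 CPM in wild type 1 and 2, 84.2 CPM in the heterozygote, and 64.7 and 100.7 CPM in EpoR-null 1 and 2. The controls lay between the EpoR-null samples. The means were 89.4 ± 5.93 and 82.7 ± 25.5 CPM, with a log2 fold change of -0.11 (SE 0.22, FDR = 0.839, exact test).

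Shmt1 and Shmt2 encode the cytosolic and the mitochondrial enzyme that split serine into glycine and a one-carbon unit (chr11:60788104-60811718 and chr10:127517123-127522444, both minus strand). Shmt1 expression was 74.9 and 83.1 CPM in wild type 1 and 2, 78.9 CPM in the heterozygote, and 63.8 and 103.9 CPM in EpoR-null 1 and 2. Shmt2 expression was 141.7 and 173.1 CPM in wild type 1 and 2, 141.6 CPM in the heterozygote, and 133.4 and 203.4 CPM in EpoR-null 1 and 2. For both genes EpoR-null 1 was the lowest and EpoR-null 2 the highest sample. The log2 fold changes were 0.09 (SE 0.24, FDR = 0.882) for Shmt1 and 0.15 (SE 0.23, FDR = 0.774) for Shmt2 by the exact test. Of the 65-base windows of the Shmt1 transcript, 4.29% also lie in transcripts of Smcr8 and of no other gene. The exons of Smcr8 overlap on the opposite strand. Shmt2 shares 0.809% of its windows with Gm15544, and its exons overlap those of Ndufa4l2 on the opposite strand. Exons of Mthfd1 overlap those of Gm47525, also on the opposite strand. The strand setting of the read counting is not given in the sources used here.

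The bases before the start sites of the members were searched, on both strands, for letters of some factors the study or the pathway points to. The paper's discussion describes NRF1 as binding antioxidant response or Maf recognition elements. Neither these elements nor a REST site was among the letters searched. The pattern called NRF1 below has other letters, so a match to it is not a match to the elements of the discussion. Whether it is a site of the factor described there was not tested. RefSeq promoters (GRCm38.p6, 250 bases before the start) were found for 7 of the 8 members, all but Folr1, and Slc19a1 has 2 starts. Shmt2 was the only one with a match. The promoters of the SHMT pair are shown because they differ in this respect, with the matches in capitals. The first match is to the STAT pattern TTCNNNGAA and the next to the NRF1 pattern, in which 1 position was free. Shmt2 lies at chr10:127522445-127522694 and Shmt1 at chr11:60811266-60811515, both on the minus strand, written 5′ to 3′ up to the base before the start.
Shmt2: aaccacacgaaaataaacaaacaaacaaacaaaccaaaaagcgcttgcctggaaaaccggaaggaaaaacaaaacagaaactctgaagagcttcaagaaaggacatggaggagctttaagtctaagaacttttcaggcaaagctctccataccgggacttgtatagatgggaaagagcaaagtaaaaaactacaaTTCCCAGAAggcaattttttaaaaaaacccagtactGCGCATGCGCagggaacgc
Shmt1: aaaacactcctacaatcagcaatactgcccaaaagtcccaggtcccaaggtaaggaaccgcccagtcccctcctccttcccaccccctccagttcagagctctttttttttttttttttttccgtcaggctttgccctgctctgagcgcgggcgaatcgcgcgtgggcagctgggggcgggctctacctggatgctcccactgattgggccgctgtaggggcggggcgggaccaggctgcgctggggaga
The NRF1 match of Shmt2 lies 19 to 10 bases and the STAT match 55 to 47 bases before the start. Over all 32851 promoters of the same length, 3.74% held the NRF1 pattern and 7.02% the STAT pattern. The E-box CACGTG (6.02% of all promoters), the ATF4-type TGATGNAA (3.45%), and the E2F-type TTTCCCGC (0.895%) and TTTGGCGC (0.417%) were in none of the members' windows. A match is a description of these letters only.

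Gldc encodes the glycine decarboxylase of the mitochondrial glycine cleavage system (chr19:30098447-30175429, minus strand). Its expression was 105.7 and 106.3 CPM in wild type 1 and 2, 116.1 CPM in the heterozygote, and 88.9 and 97.6 CPM in EpoR-null 1 and 2. Both EpoR-null samples were below all controls, and the spread within each group was small. Controls averaged 109 ± 5.84 CPM (SD, n = 3) and EpoR-null samples 93.2 ± 6.17 CPM (SD, n = 2). The log2 fold change was -0.23 (SE 0.14, 95% interval -0.50 to 0.04, FDR = 0.359, exact test), and its FDR was 0.204 in the quasi-likelihood F-test.

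For the 7 members other than Folr1, the 95% intervals of the fold change all lay between 0.611 (Mthfd1) and 1.63 (Slc19a1). The interval for Folr1, which needed an EpoR-null sample to enter the test, ran from 1.06-fold to 4.07-fold. It is not adjusted for the number of genes tested. The unadjusted p for Folr1 was 0.0507 in the quasi-likelihood F-test and 0.103 in DESeq2. These intervals rest on dispersions estimated across all tested genes with 5 embryos.

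**Figure D2:**
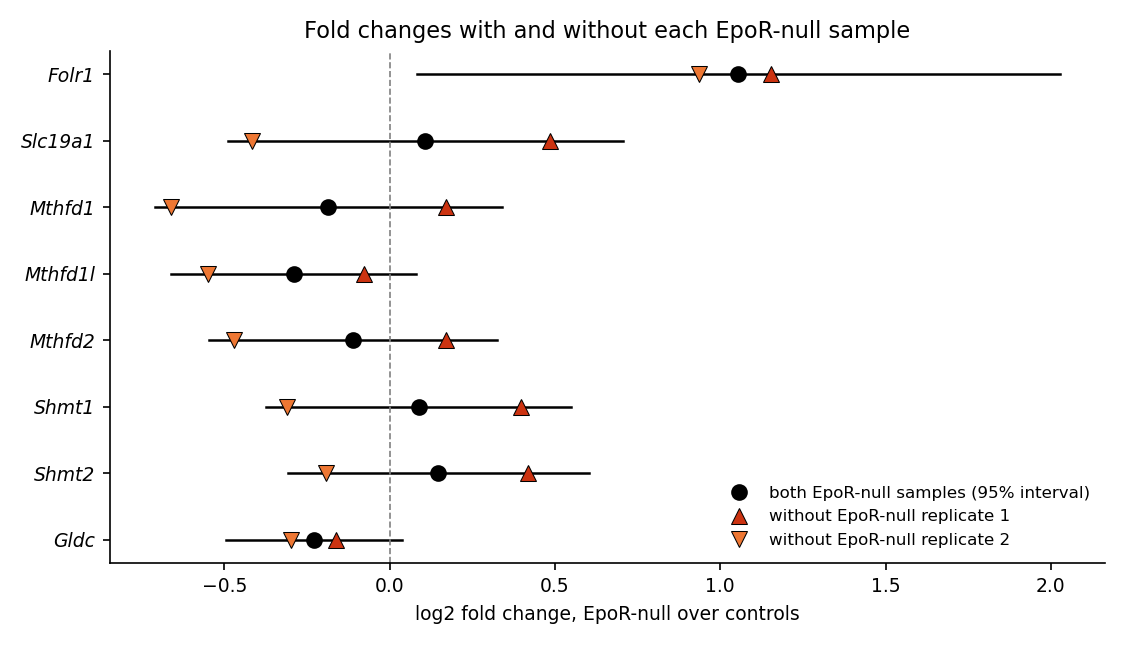
Log2 fold change of EpoR-null over controls (horizontal axis) for each member (rows), with the 95% interval from all 5 samples (black) and the value without EpoR-null 1 (upward triangles) or without EpoR-null 2 (downward triangles). For Slc19a1, Mthfd1, Mthfd2, Shmt1 and Shmt2 the sign depends on which EpoR-null sample is kept, and Folr1, Mthfd1l and Gldc keep theirs.

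For every member but Folr1, the EpoR-null embryos differed from each other more than the wild types did. EpoR-null 1 was the lowest of the 5 samples for 7 of 8 members (all but Folr1), which held for 22.9% of all tested genes. EpoR-null 2 was the highest for 6 of 8 (34.8% of all tested genes), and both held for 5 of 8 (10.9%). No member showed the opposite order, which 9.73% of all tested genes did. The median difference of EpoR-null 2 over EpoR-null 1 was 0.62 on the log2 scale for the members and -0.01 over all tested genes, where differences of both signs cancel. The median absolute difference between the EpoR-null embryos was 0.62 for the members and 0.32 over all tested genes, and between the wild types 0.17 and 0.13. This pattern was chosen after the values were seen and is a description with no test.

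Slc19a1 and Mthfd1 were furthest apart, at 1.86-fold and 1.78-fold more in EpoR-null 2, followed by Shmt1 (1.63-fold), Mthfd2 (1.56-fold), Shmt2 (1.52-fold) and Mthfd1l (1.39-fold). Folr1 and Gldc differed by 1.16-fold and 1.10-fold. Between the lowest and highest control, the members other than Folr1 differed by 1.10-fold to 1.22-fold. Without EpoR-null 2, 2 members passed both thresholds, Mthfd1 (log2 fold change -0.66, FDR = 0.000201) and Mthfd1l (-0.55, FDR = 0.00301), both lower. In that comparison 7.76% of all tested genes passed, and 5.1% were lower. Without EpoR-null 1, Shmt1 passed in the other direction (log2 fold change 0.40, FDR = 0.00539), where 18.3% of all tested genes passed and 8.06% were higher. Each of these exact tests takes a lone EpoR-null embryo to vary like the controls.

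Other measures also separated the EpoR-null samples. EpoR-null 1 had the fewest reads (19316126) and EpoR-null 2 had 30378879. Within the wild types the deeper sample was the higher for 7 of 8 members, though for Gldc only at 106.3 against 105.7 CPM. The share of all tested genes for which this held is not given here. Summed newborn neuron markers (7 genes) were 1071 CPM in EpoR-null 1 and 241.5 CPM in EpoR-null 2, outside the control range of 323.5 to 540.7 CPM on both sides, and neural progenitor markers were 1946 and 1601 CPM. Summed S phase and mitosis genes (14) were 6872 and 7871 CPM against 7631 to 7937 CPM in controls. The part of depth, cell makeup and cell cycle in the difference between the EpoR-null embryos was not tested. In bulk tissue, fewer cells of a type and less RNA per cell cannot be told apart.

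**Figure D3:**
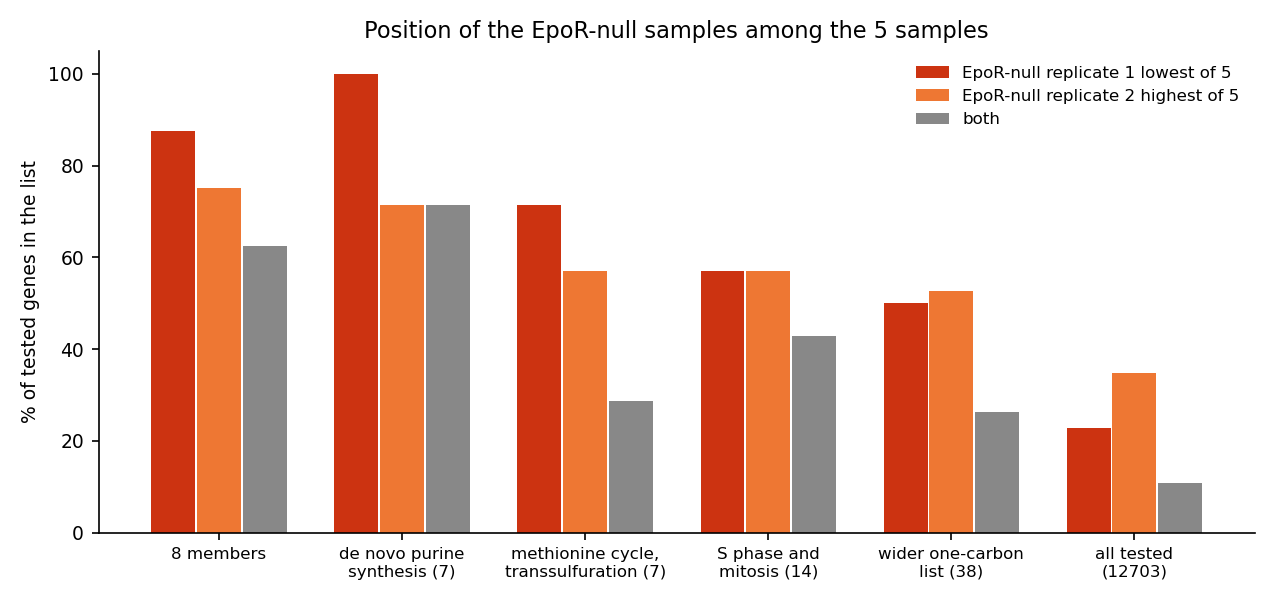
Share of tested genes (vertical axis, %) in which EpoR-null 1 was the lowest of 5 samples, EpoR-null 2 the highest, or both, for the 8 members, 4 other gene lists and all 12703 tested genes (number of tested genes in brackets). Both held for 62.5% of the members, 71.4% of de novo purine synthesis genes and 10.9% of all tested genes.

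The wider pathway was read from a list of 44 further one-carbon genes, of which 38 were tested; Folr2, Aldh1l1, Ftcd, Bhmt, Bhmt2 and Gnmt were too weakly expressed. One, Mtr, was differentially expressed, and it was lower in EpoR-null, a direction in which 3.84% of all tested genes passed. The log2 fold change was below 0 for 15 genes and above 0 for 23, with a median of 0.05. Both EpoR-null samples lay below all controls for 5 of 38 genes and above them for 5 of 38, against 22.1% and 21.2% of all tested genes.

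Mtr encodes methionine synthase, the cobalamin-dependent enzyme that passes a methyl group from folate to homocysteine. Its expression was 51.5 and 49.4 CPM in wild type 1 and 2, 52.2 CPM in the heterozygote, and 32.2 and 33.8 CPM in EpoR-null 1 and 2. Unlike most members, the EpoR-null embryos were close to each other here, and both were far below the controls. Controls averaged 51.0 ± 1.46 CPM (SD, n = 3) and EpoR-null samples 33.0 ± 1.15 CPM (SD, n = 2). This corresponded to a log2 fold change of -0.63 (SE 0.15, FDR = 0.00244, exact test). The call was kept in 11 of 19 alternatives and lost in 8. These are not all distinct fits. Wild type only as controls and leaving out the heterozygote are the same fit, and FDR < 0.05 alone uses the main fit. It was kept in DESeq2 (FDR = 3.21e-06) and in the quasi-likelihood F-test with a replicate block (FDR = 0.042). It was lost in the quasi-likelihood F-test without the block (FDR = 0.059), in which no tested gene passed. It was also lost without wild type 1 (FDR = 0.198), without wild type 2 (FDR = 0.053) and without the heterozygote (FDR = 0.108). When each sample's trend on transcript length and GC was removed by offsets, the log2 fold change was -0.18 (FDR = 0.9999, likelihood-ratio test of edgeR).

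The 3 genes of the wider list with the largest changes that did not pass were Lrp2, Tcn2 and Cbs. Lrp2 encodes megalin, an endocytic receptor of the apical neuroepithelium that takes part in folate uptake. Lrp2 expression was 31.4 and 34.1 CPM in wild type 1 and 2, 39.7 CPM in the heterozygote, and 11.2 and 27.0 CPM in EpoR-null 1 and 2 (log2 fold change -0.87, SE 0.40, FDR = 0.199, exact test). The groups did not overlap, and EpoR-null 1 was much the lower. Without EpoR-null 2 it passed (log2 fold change -1.65, FDR = 2.13e-08), and without EpoR-null 1 the log2 fold change was -0.38 (FDR = 0.169). With the length and GC offsets it was -0.12 (FDR = 0.9999, likelihood-ratio test). Tcn2, which encodes the cobalamin carrier transcobalamin, was at 11.5, 10.1 and 9.07 CPM in the controls and 18.3 and 13.0 CPM in the EpoR-null samples (log2 fold change 0.61, FDR = 0.205, exact test). Cbs, which encodes cystathionine beta-synthase, was at 2.85, 3.97 and 2.55 CPM in the controls and 2.72 and 5.66 CPM in the EpoR-null samples, which overlap (log2 fold change 0.43, FDR = 0.670).

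By role, 0 of 5 tested genes passed in folate uptake and retention (median log2 fold change 0.12), and 0 of 7 in folate reduction and interconversion (median 0.08, highest Mthfs at 0.41). The partners of Gldc in glycine cleavage, Amt, Gcsh and Dld, did not pass either (median 0.07). In the methionine cycle and transsulfuration 1 of 7 passed, Mtr, with a median of 0.01. The 5 genes of cobalamin supply all had log2 fold changes above 0 (median 0.29), and none passed. In serine synthesis and mitochondrial serine entry 0 of 4 passed (median 0.08), and in de novo purine synthesis, which consumes formyl folate, 0 of 7 passed (median -0.03, lowest Pfas at -0.42).

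**Figure D4:**
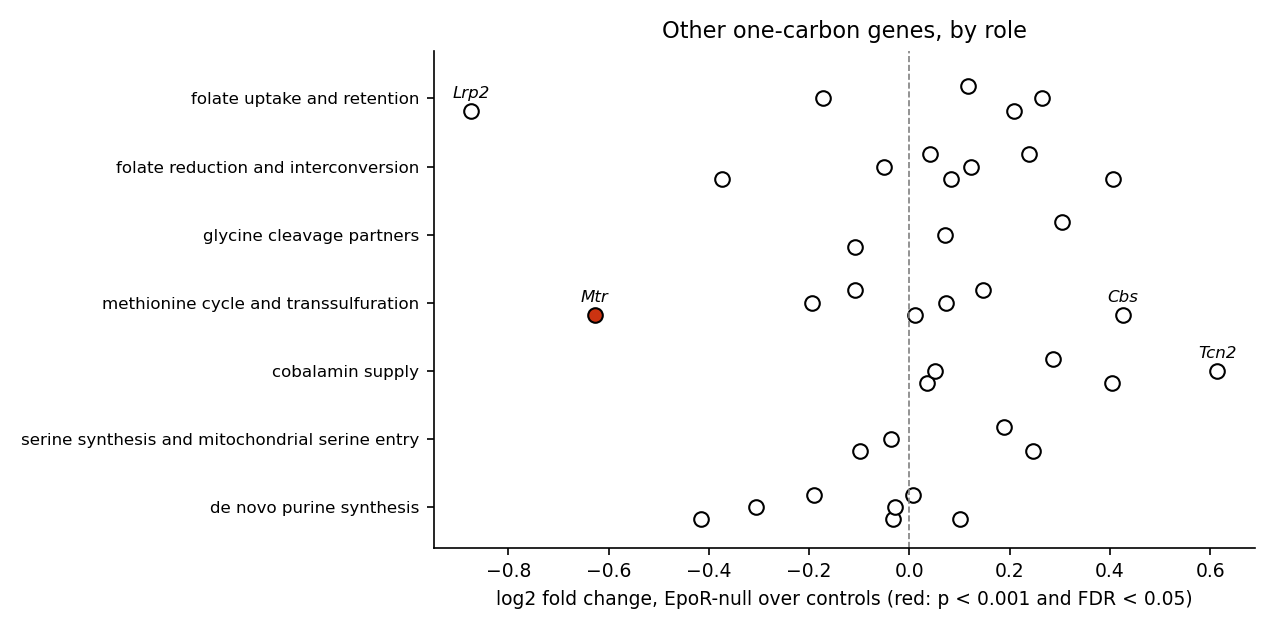
Log2 fold change of EpoR-null over controls (horizontal axis) for the 38 tested genes of the wider list, 1 point a gene, in rows by role; points are shifted up or down only to separate them. Mtr at -0.63 is the only filled point, past both thresholds of the exact test, and the other 37 are open.

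Purine synthesis genes were split between the EpoR-null embryos in the same direction. EpoR-null 1 was the lowest sample for 7 of 7 purine genes and EpoR-null 2 the highest for 5 of 7, and their median difference was 0.58 on the log2 scale. Some other parts of the pathway were split in this direction too. EpoR-null 1 was the lowest for 4 of 5 genes of folate uptake and retention, with a median difference of 0.91. It was the lowest for 5 of 7 genes of the methionine cycle and transsulfuration (median 0.45). For serine synthesis and mitochondrial serine entry it was the lowest for 2 of 4 (median 0.34). The remaining parts were not split this way. In folate reduction and interconversion EpoR-null 1 was the lowest for 0 of 7 genes and the median difference was -0.22, in cobalamin supply for 0 of 5 with a median of -0.08, and among the partners of Gldc for 1 of 3 with a median of 0.04. Gart, a purine enzyme that uses formyl folate, was at 260.5, 309.1 and 279.2 CPM in the controls and 185.9 and 309.6 CPM in the EpoR-null samples. In the wider list as a whole both held for 10 of 38 genes (26.3%), and among S phase and mitosis genes for 6 of 14 (42.9%). Of 10 tested genes known to respond to ATF4, both held for 3. No gene of these last 2 lists passed the test. The median log2 fold change was -0.03 over the 14 S phase and mitosis genes (from -0.68 for Mki67 to 0.24 for Cdk1). It was -0.04 over the 10 ATF4 genes (from -0.49 for Sesn2 to 0.39 for Slc7a11).

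Likeness of profile was measured as the root mean square distance between mean-centred log2 CPM over the 5 samples. The nearest gene of the wider list was Adsl for Shmt1 (distance 0.0267), Gart for Mthfd1 (0.0442), Atic for Mthfd2 (0.0494), Ahcy for Slc19a1 (0.0503), Mtrr for Mthfd1l (0.0523), Phgdh for Shmt2 (0.0581) and Slc25a32 for Gldc (0.0707). Among all tested genes, Fah (0.0823) and Klk8 (0.136) were among the nearest to Folr1. Neither passed the test, and all samples and their depths are shared by the profiles compared.

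Levels were compared between members per kilobase of the longest annotated transcript. In controls the mean level was 66.5 CPM per kilobase for Shmt2, 54.6 for Mthfd1, 42.9 for Mthfd2, 29.6 for Mthfd1l, 29.0 for Gldc, 27.6 for Shmt1, 11.6 for Slc19a1 and 0.656 for Folr1. The control ranges of Mthfd1l (28.2 to 32.1), Gldc (28.1 to 30.8) and Shmt1 (26.2 to 29.1) overlapped, so their order is not resolved. Those of the other neighbours were separate.

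The balance between the mitochondrial arm (Shmt2, Mthfd2, Mthfd1l, Gldc) and the cytosolic arm (Shmt1, Mthfd1) was steady in controls, with a ratio of summed CPM of 1.80, 1.80 and 1.79. It was 2.06 in EpoR-null 1 and 1.67 in EpoR-null 2, on either side of the controls (two-sided exact permutation test, p = 0.7). The ratio of Mthfd2 to Mthfd1l, the successive mitochondrial steps, was 0.837, 0.810 and 0.809 in controls and 0.865 and 0.972 in the EpoR-null samples, which did not overlap (p = 0.1 by the same exact test). The other 5 sums and ratios computed gave p values of 0.2 to 0.9. With 3 against 2 embryos the smallest p this test can give is 0.1, so none could pass, and the adjusted p over the 7 comparisons was at least 0.7.

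Fold changes over all genes followed transcript length. Among the 11525 tested genes with a known length, split into 5 equal bins, the median log2 fold change was 0.36 in the shortest bin and then 0.15, 0.04, -0.11 and -0.36 in the longest. Of the genes lower in EpoR-null, 372 were in the longest bin and 4 in the shortest. Slc19a1, Mthfd2, Shmt1 and Shmt2 are in bin 2 and Mthfd1, Mthfd1l and Gldc in bin 3. All 7 had log2 fold changes below the median of their bin, Shmt2 only just (0.147 against 0.1545). By definition as many genes of a bin lie below its median as above. EpoR-null 1 was the lowest sample for all 7, so they are not separate observations, and no test was made. Folr1, at 1313 bases in the shortest bin, was above the median of its bin. Mtr (8294 bases), Lrp2 (15460 bases) and Cbs (6226 bases) are in the longest bin, and Tcn2 (2027 bases) is in the shortest. Mtr and Lrp2 were below the median of their bin, and Cbs (0.43) and Tcn2 (0.61) were above it. With length and GC offsets in the likelihood-ratio test, Cbs was at 0.77 and Tcn2 at 0.36. With these offsets 0 of 8 members passed, and Slc19a1 (-0.05), Shmt1 (-0.02) and Shmt2 (-0.11) had log2 fold changes below 0. Folr1 was at 0.67 with them.

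**Figure D5:**
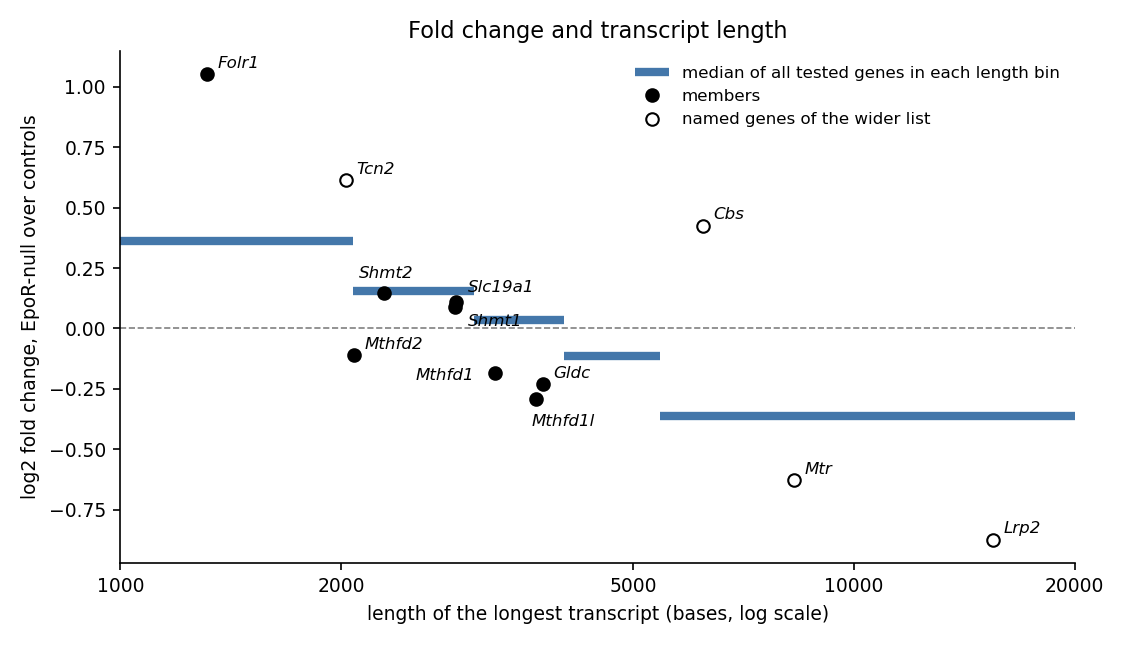
Log2 fold change of EpoR-null over controls (vertical axis) against the length of the longest transcript (horizontal axis, bases, log scale) for the 8 members (filled) and the 4 named genes of the wider list (open); horizontal bars are medians of all tested genes in each of 5 equal bins by length, and the outer bars run past the axis. The medians step down from 0.36 to -0.36, with 7 members below (Shmt2 only just) and Folr1 above the median of their bin. Of the open points, Mtr and Lrp2 are below and Cbs and Tcn2 above.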

How the data were processed

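RNA of 5 mouse neural tube samples was analysed. Reads had been trimmed with Trimmomatic 0.32, aligned with TopHat2 2.1.0 and counted per gene with HTSeq 0.6.1, and the deposited values are raw counts per gene and sample, 1 table a sample. The submitters' processing notes name mm9, and the methods name a human build. Rows for unassigned reads were left out of library sizes (reads in no gene came to 8.115% to 11.03% of the gene total, and ambiguous reads to 1.845% to 2.305%). HTSeq leaves out reads of shared sequence.

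The counts were fitted as in the study, with edgeR 4.0.16 in R 4.3.3: TMM normalization, tagwise dispersions and exactTest, EpoR-null against wild type and heterozygote, Benjamini-Hochberg adjustment over all tested genes, p < 0.001 and FDR < 0.05. Genes above 1 CPM in at least 2 samples were tested. Standard errors are from the negative binomial information. Alternatives were the quasi-likelihood F-test, also with a replicate block, the likelihood-ratio test, DESeq2 1.42.0, other normalizations, filters, dispersions and controls, thinning, single samples left out, and offsets for transcript length and GC content (GENCODE M21; 90.73% of tested genes had a match by symbol). The scripts were tested on simulated data. No samples were duplicates (lowest chi-square per degree of freedom between samples 11.95). Each sample was taken as 1 embryo. The paper gives a number per genotype and does not say whether neural tubes were pooled.

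Positions are from GENCODE M21 (GRCm38) by symbol. Named genes are all members, Epor, wider genes that passed and the 3 with the largest changes that did not, the nearest profiles, and the extremes of other lists. Gart, and the lowest and highest genes by role within the wider list, were added after their values were seen. Some genes that this rule names are not reported here. The members and lists were chosen with earlier results of these data known.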

Additional observations from a re-analysis of the deposited data

How the results depend on the processing

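The members passing both thresholds numbered 0 with all samples and 0 to 2 with 1 sample left out (1 without EpoR-null 1, where 2296 of 12576 genes passed, and 2 without EpoR-null 2, where 980 of 12634 passed), and 0 in every alternative that kept both EpoR-null samples. Leaving out 1 sample gave log2 fold changes of opposite sign for Slc19a1 (lowest -0.42, highest 0.48), Mthfd1 (-0.66 to 0.17), Mthfd2 (-0.47 to 0.17), Shmt1 (-0.31 to 0.40), Shmt2 (-0.19 to 0.42) and Cbs (-0.21 to 0.85). With the replicate block, Slc19a1 was at -0.032 and Shmt1 at -0.0068. With length and GC offsets in the likelihood-ratio test, Slc19a1 was at -0.051, Shmt1 at -0.016 and Shmt2 at -0.11, and with those offsets and the replicate block in the quasi-likelihood F-test at -0.17, -0.11 and -0.17. Folr1, Mthfd1l and Gldc kept their sign in all 19 alternatives, not all of which are distinct fits.

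The wider list had 1 gene past the thresholds, and 0 in the quasi-likelihood F-test, with a common dispersion, with wild type only as controls and with both forms of the offsets. Leaving out 1 sample gave 0 to 6. Over all genes 606 passed, 0 in the quasi-likelihood F-test (lowest FDR 0.05898, 3052 genes at an unadjusted p under 0.05), 291 with the replicate block, 1028 in DESeq2, 257 with a common dispersion, 253 with wild type only as controls, 928 at FDR < 0.05 alone, 149 with offsets in the likelihood-ratio test and 0 with offsets and the replicate block. Leaving out 1 sample gave 115 to 2296. The causes were not tested.

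EpoR-null and wild type samples with the same number deviated together (r = 0.4271 across 12703 genes), but with 2 pairs this does not establish a pairing. Folr1 rests on 11 to 55 reads per sample, which limits its precision.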
